A study of Mus musculus with 2 samples.

Results

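The immediate early genes described here are 10 genes of the serum and stress response, Fos, Fosb, Jun, Junb, Atf3, Egr1, Egr2, Ier2, Ier3 and Dusp1. They were taken by symbol from the deposited table of 18888 genes, and all 10 have a row. Both samples were 46C mouse embryonic stem cells (mESCs), kept on gelatin in conventional mESC medium at passages 21 to 24. PB mESCs carried the empty PiggyBac vector. PB-TERRA mESCs carried the same vector with telomeric repeats, from which they overexpressed polyadenylated TERRA, the noncoding RNA transcribed from telomeres. Total RNA of each was sequenced as 1 library, so there is no spread between replicates and nothing was tested. How many cultures or clones gave the RNA, and how long before lysis the medium was last changed, is not given in the sources used here. TERRA itself is not analysed here.

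Immediate early genes are switched on within minutes of a stimulus by factors that the cell already holds, without new protein synthesis. Growth factors act on them through the RAF, MEK and ERK kinases, which phosphorylate ELK factors bound with SRF at CArG boxes, and cAMP and stress kinases act through CREB and ATF factors at cAMP response elements (CREs). Most of their products are transcription factors, and their transcripts are short-lived. In mESCs, autocrine FGF4 is a known source of ERK activity, and Egr1 is a widely used readout of it.

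Values are FPKM, fragments scaled to the length of the gene and to the mapped reads of the library, which allow levels to be compared between genes per length. Libraries were compared by the log2 ratio of FPKM + 0.1 with PB as the denominator, so that positive values are higher in PB-TERRA. The added 0.1 understates the difference of genes with low FPKM. Genes were kept where either library reached 1 FPKM, a filter that 8 of the 10 members and 12263 genes in all passed. Read numbers were estimated from the FPKM, the gene length and a library total of 24760000 reads for PB and 24920000 for PB-TERRA. They give the exact 95% binomial interval of the log2 ratio of the reads, which covers counting error only and says nothing of the variation between cultures.

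Sequences are shown for 4 members. Fos gives the class its best-known promoter, Dusp1 and Ier3 are the members whose intervals lay to 1 side of 0, and Egr2 is the member with CArG boxes among the windows examined. The 250 bases before the start site, 5′ to 3′, come from RefSeq on GRCm38.p6, at chr12:85473640-85473889 on the + strand for Fos, chr17:26508473-26508722 on the - strand for Dusp1 and chr17:35821463-35821712 on the + strand for Ier3. The 30 bases around the CArG boxes of Egr2 lie at chr10:67537484-67537513 and chr10:67537787-67537816 on the + strand, each before a different annotated start. Capitals mark the matches to the motifs named in the next paragraph that lie whole within the stretch shown.
Fos: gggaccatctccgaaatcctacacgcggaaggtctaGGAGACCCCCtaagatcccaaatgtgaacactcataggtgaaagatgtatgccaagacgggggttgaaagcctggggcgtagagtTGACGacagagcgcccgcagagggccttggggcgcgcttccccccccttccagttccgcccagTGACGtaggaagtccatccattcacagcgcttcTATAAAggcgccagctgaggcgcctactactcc
Dusp1: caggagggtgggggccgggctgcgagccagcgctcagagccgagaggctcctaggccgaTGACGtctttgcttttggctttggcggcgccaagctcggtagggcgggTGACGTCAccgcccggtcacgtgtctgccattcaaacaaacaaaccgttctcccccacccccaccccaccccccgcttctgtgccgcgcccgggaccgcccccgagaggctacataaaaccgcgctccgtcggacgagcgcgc
Ier3: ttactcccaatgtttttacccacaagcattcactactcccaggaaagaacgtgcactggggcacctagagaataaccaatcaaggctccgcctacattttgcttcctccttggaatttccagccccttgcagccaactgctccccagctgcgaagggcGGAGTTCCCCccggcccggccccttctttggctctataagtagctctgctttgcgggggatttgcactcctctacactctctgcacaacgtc
Egr2, first site: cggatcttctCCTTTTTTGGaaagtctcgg
Egr2, second site: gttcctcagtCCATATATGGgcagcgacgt

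Windows of 250 bases were found for 8 of the 10 members, all but Egr1 and Ier2. They were searched on both strands for the CRE (TGACGTCA), its core (TGACG), an AP-1 site (TGAGTCA), an EGR site (GCGTGGGCG), TATAAA, the CArG box and the NF-kB site. The CRE core overlaps the CRE, and a gene with several annotated starts has several windows. A CRE core was found in 6 of the 8 members, Fos, Fosb, Junb, Atf3, Egr2 and Dusp1, and in 19.8% of the 27025 genes with a window. The full CRE was found in Dusp1 alone among the members, from -143 to -136, and in 1.77% of all genes. A CArG box was found in Egr2, and in 1.62% of all genes. TATAAA was found in Fos, from -33 to -28, and in 14.3% of all genes. Matches to the NF-kB site were found in Fos, Fosb and Ier3, and in 4.46% of all genes. The AP-1 site and the EGR site were found in 0 members, and in 5.16% and 0.622% of all genes. A match describes the letters only. Elements outside these windows were not searched, so a gene without a CArG box here, such as Fos, may have one further upstream.

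The 10 genes were expressed at very different levels in these mESCs, and in the same order in PB and PB-TERRA. Ier2 was the most abundant, followed by Junb and Dusp1. Ier3 and Egr1 lay near 10 FPKM and Jun near 5 FPKM. Atf3 and Fos lay near 2 FPKM, and Fosb and Egr2 below the filter. Among all 18888 genes, Ier2 in PB was at percentile 94.9 of the FPKM values, Fos at 40.5 and Egr2 at 15.5. The counting intervals of neighbours in this order overlapped in both libraries for Atf3 and Fos only. For Ier3 and Egr1 they overlapped in PB-TERRA, where they were 8.71 to 11.3 and 8.69 to 10.1 FPKM, but not in PB, where they were 11.6 to 14.5 and 9.03 to 10.5 FPKM.

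**Figure D1:**
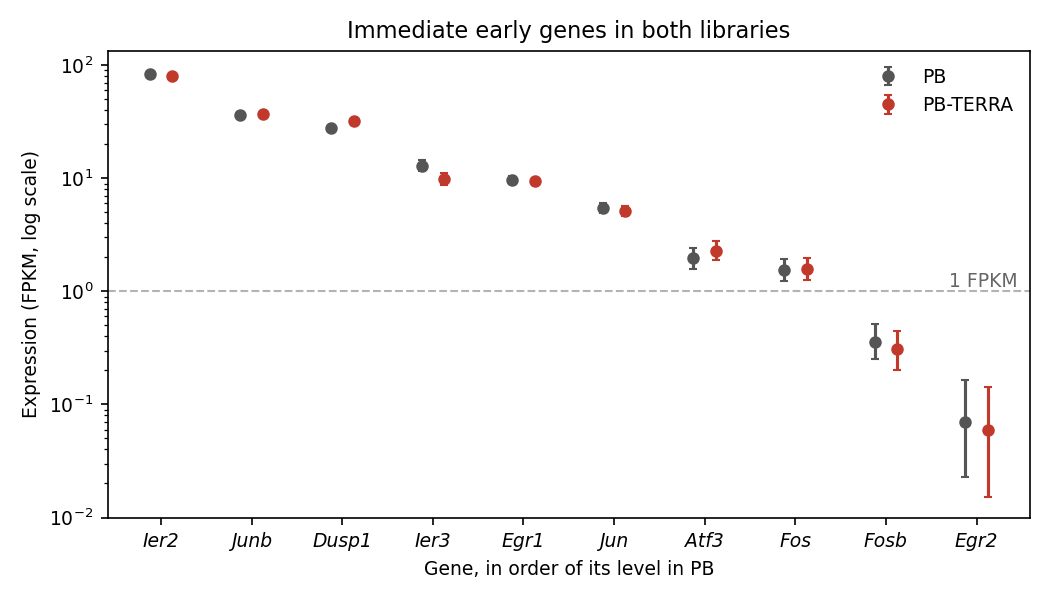
Expression of the 10 immediate early genes in FPKM on a log axis, in PB (grey) and PB-TERRA (red), with exact 95% Poisson intervals of the estimated reads as bars. The genes range from 84.19 FPKM for Ier2 to 0.07 FPKM for Egr2 in PB, and the points of both libraries lie close together for every gene.

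None of the 8 members past the filter (0 of 8) differed between the libraries by 1 or more on the log2 scale, a size that 0.913% of the 12263 genes reached. A difference of 0.5 or more was also found for 0 of 8, and for 4.67% of all genes. With only 8 members, counts of 0 are near both shares. Of the 8 members, 4 were higher and 4 lower in PB-TERRA, with a median log2 ratio of -0.02. It turned to 0.02 with both libraries rescaled to the same sum and to 0.0056 with the length trend taken off. Over all genes past the filter the median was -0.0044, with 48.6% higher and 50.9% lower. With Fosb and Egr2, which did not pass, the median of the 10 members was -0.06. The lowest and highest members, Ier3 at -0.38 and Atf3 at 0.21, lay inside the middle 95% of all genes, which ran from -0.49 to 0.48. This range covers genes of every level past the filter and was not matched to the FPKM of the members. The 10 members together took an estimated 7459 reads of the PB library and 7442 of the PB-TERRA library, and the interval of this log2 ratio of -0.01 ran from -0.06 to 0.03. Ier2 alone made up 46.6% of the summed FPKM in PB. Without it the reads were 4484 and 4591, and the interval of the log2 ratio, -0.03 to 0.08, also included 0.

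**Figure D2:**
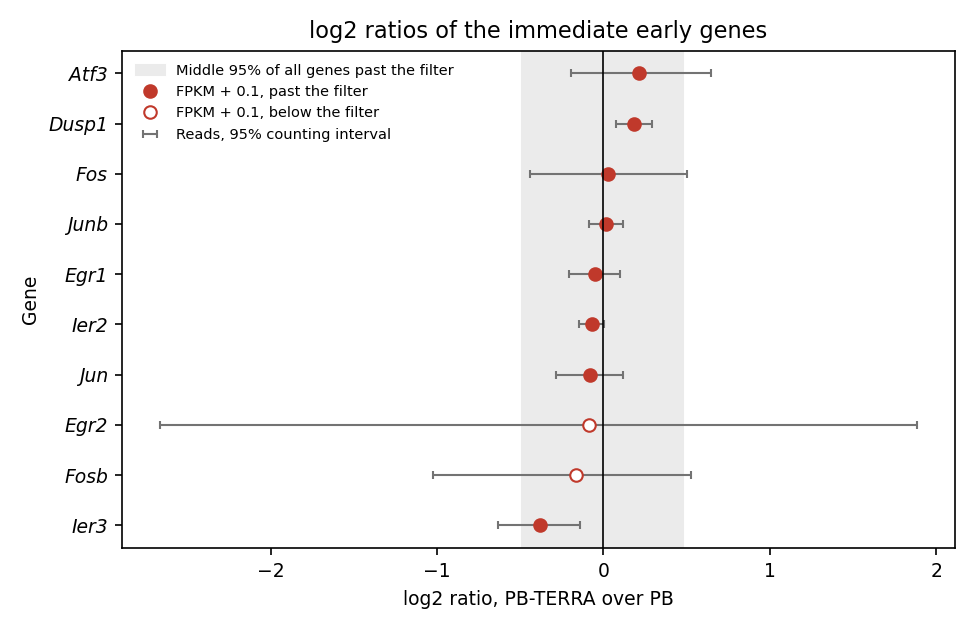
Points show PB-TERRA against PB as the log2 ratio of FPKM + 0.1 for the 10 immediate early genes, open where the gene is below the filter. Bars are 95% counting intervals of the log2 ratio of the reads, and the shaded band is the middle 95% of all genes, -0.49 to 0.48. The bars of Ier3 and Dusp1 do not cross 0, and that of Egr2 is the widest.

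The AP-1 members encode subunits of the dimeric factor that binds AP-1 sites. Fos, which must pair with a Jun protein to bind DNA, stood at 1.56 FPKM in PB mESCs and 1.59 in PB-TERRA mESCs. These values rest on an estimated 77 and 79 reads, and the log2 ratio was 0.03, with an interval of the reads from -0.44 to 0.50. Fosb, a second Fos protein, had 0.36 and 0.31 FPKM from 33 and 28 reads. Its log2 ratio was -0.17 and the interval ran from -1.03 to 0.52, which included 0. Both Fos genes were thus near or below the filter in PB and in PB-TERRA alike.
Jun, which can bind DNA as a homodimer, had 5.46 and 5.15 FPKM. Its 415 and 394 reads gave an interval from -0.29 to 0.12 around a log2 ratio of -0.08. Junb, a Jun protein with weaker activation by itself, was far higher, with 36.47 and 36.88 FPKM. Its 1559 and 1585 reads gave a log2 ratio of 0.02 with an interval from -0.09 to 0.12. Atf3, a stress-induced factor of the ATF and CREB family, had 1.97 FPKM in the PB library and 2.30 in the PB-TERRA library. Its log2 ratio of 0.21 was the highest of the members, at percentile 89.6 of all genes, but 91 and 107 reads gave an interval from -0.19 to 0.64, which included 0.

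Set beside the other genes of their families, the AP-1 members held similar shares in both libraries. Of the FPKM summed over Fos, Fosb, Fosl1 and Fosl2, Fos held 22.7% in PB and 23.4% in PB-TERRA. Fosl2, no member of the list, held 55.0% and 53.8%. Of the sum over Jun, Junb and Jund, Junb held 58.9% and 60.4% and Jun held 8.81% and 8.44%. The summed reads of the Fos family had a log2 ratio of -0.04 with an interval from -0.20 to 0.11, and those of the Jun family one of -0.03 with an interval from -0.10 to 0.04. In both libraries the Jun family was more abundant than the Fos family, with 61.97 and 61.04 FPKM beside 6.87 and 6.79 FPKM.

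**Figure D3:**
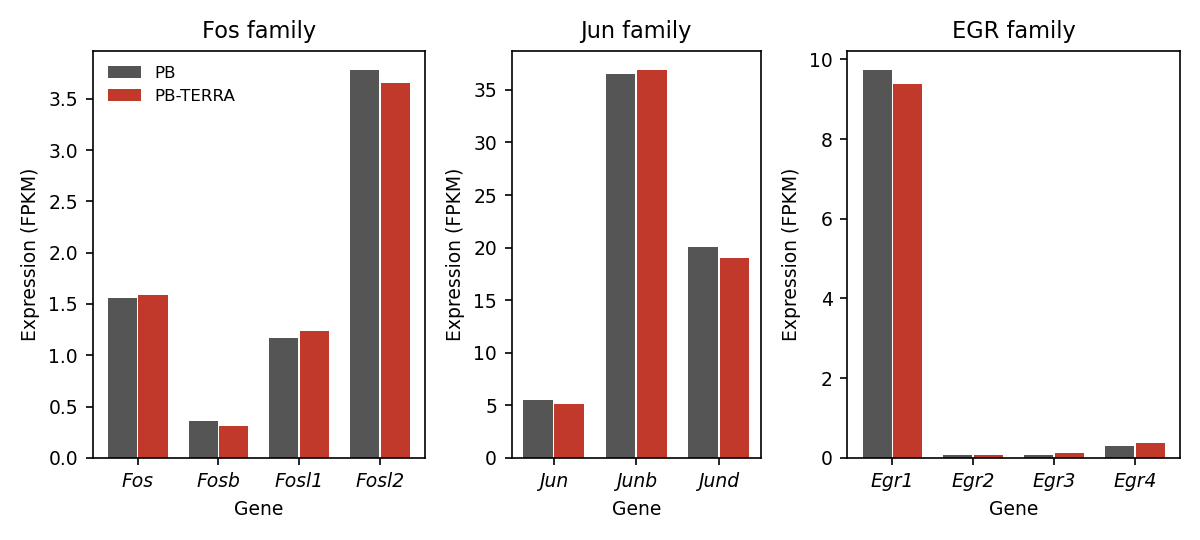
Bars give the FPKM of each gene of the Fos, Jun and EGR families in PB (grey) and PB-TERRA (red), each panel with its own axis from 0. Fosl2, Junb and Egr1 are the most abundant genes of their families in both libraries.

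The EGR members encode zinc finger factors that bind GC-rich sites. Egr1 had 9.73 and 9.38 FPKM in PB and PB-TERRA, from 713 and 691 reads. Its log2 ratio was -0.05 with an interval from -0.21 to 0.10. Egr2, known for its part in hindbrain segmentation and myelination, had 0.07 and 0.06 FPKM. These are about 5 and 4 reads, and the interval, from -2.66 to 1.88, was the widest of the members and included 0. Egr1 made up 95.7% of the FPKM of the 4 EGR genes in PB and 94.5% in PB-TERRA. Egr3 and Egr4 were also below the filter, with at most 0.38 FPKM. Nab1 and Nab2, which encode corepressors of EGR proteins, had log2 ratios of -0.02 and -0.07, and both intervals included 0.

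Ier2 and Ier3 share a name but are unrelated in sequence. Ier2, a nuclear protein of the immediate early response, had 84.19 FPKM in the PB library and 80.23 in the PB-TERRA library. With 2975 and 2851 reads it had the narrowest interval of the members, from -0.15 to 0.0039 around a log2 ratio of -0.07. Ier3, a regulator of cell survival and of ERK signaling, was lower in PB-TERRA mESCs, with 9.91 FPKM beside 12.95 in PB mESCs. Its log2 ratio of -0.38 was the lowest of the members, at percentile 4.28 of all genes. The reads were 313 and 241, and the interval ran from -0.63 to -0.14.
Ier3 is also the shortest member, with 1090 bases. Over all genes past the filter, the log2 ratio rose with gene length (Spearman's rho 0.18 across genes, which are not independent replicates). With the median of genes of similar length taken off, the log2 ratio of Ier3 was -0.33. The 2 protein-coding genes on each side of Ier3 in RefSeq were all lower in PB-TERRA as well, with log2 ratios of -0.23 for Gtf2h4, -0.21 for Ddr1, -0.24 for Flot1 and -0.13 for Tubb5, and each of their intervals lay below 0, where 17.7% of all genes past the filter had such an interval. Of the 3 neighbours of Dusp1 past the filter, 2 had intervals below 0 and 1 an interval that held 0, although Dusp1 itself was higher. The neighbourhood of Ier3 was examined after the values of Ier3 were seen, and its part in the result was not tested.

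Dusp1 encodes a nuclear phosphatase that inactivates p38, JNK and ERK kinases and so limits the response that induces it. It was higher in PB-TERRA mESCs, with 31.93 FPKM beside 28.08 in PB mESCs, and had a log2 ratio of 0.18 at percentile 87.1 of all genes. Its 1278 and 1462 reads gave an interval from 0.08 to 0.29. The interval thus lay above 0 for 1 of 8 members and below 0 for 1 of 8. Among all genes past the filter it lay above 0 for 18.1% and below 0 for 17.7%, together 35.8%. Such an interval is common in these libraries, and the members' counts are near that background. For the 8 members past the filter every interval stayed between -0.63 and 0.64, so a difference of 1 on the log2 scale was outside the counting error of each.

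**Figure D4:**
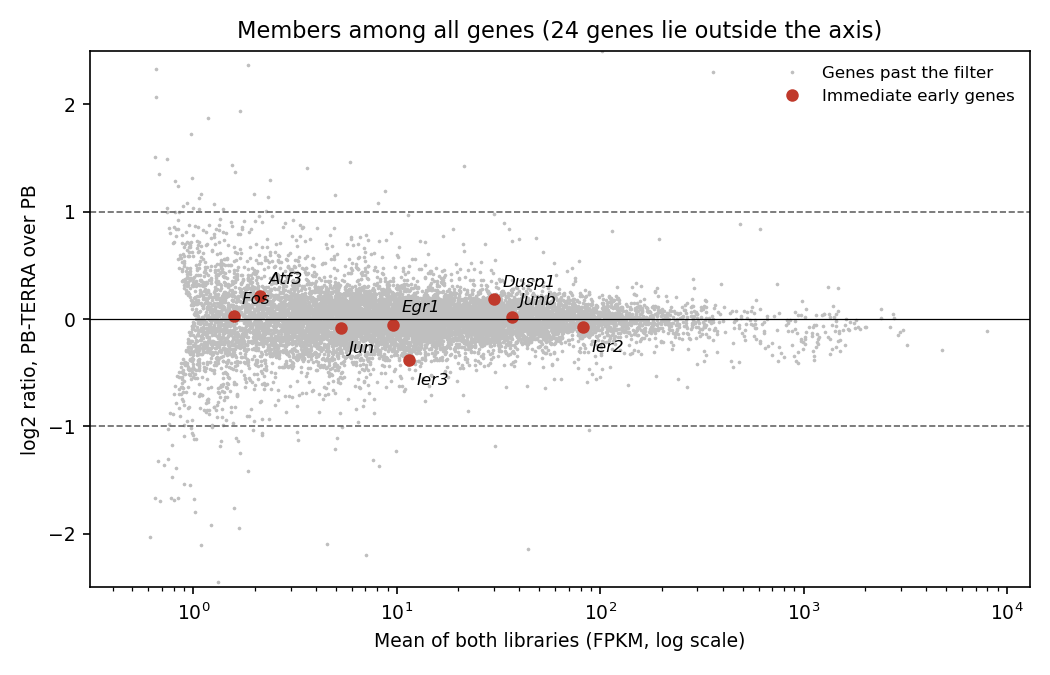
Each grey point is a gene past the filter, by its mean FPKM of both libraries (log axis) and its log2 ratio of PB-TERRA to PB, each with 0.1 FPKM added. The 8 members past the filter (red) lie between -0.38 and 0.21, within the dense band of genes, and dashed lines mark a log2 ratio of 1 in either direction. The axis ends at 2.5 in either direction, and 24 genes outside it are not shown.

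Exons of 3 members overlap those of another gene on the opposite strand in the GENCODE M21 annotation. These are Junb with Prdx2, Dusp1 with Ergic1, and Jun with the antisense gene Junos. Whether the counting used strand is not given in the sources used here, so the reads of such pairs may be mixed. Prdx2 had a log2 ratio of -0.21 beside 0.02 for Junb, and Ergic1 one of -0.10 beside 0.18 for Dusp1. Junos has no row in the table.

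Of 12 partners of the AP-1 members in dimers or related bZIP genes, 11 have a row and 9 passed the filter. Their median log2 ratio was 0.08, with 5 genes higher and 4 lower. Mafg was the highest at 0.32, and Maff, another small Maf gene, the lowest at -0.29. The interval lay above 0 for 2 of them and below 0 for 1.
A further 44 immediate early genes were listed, and 41 were past the filter, 27 with higher and 14 with lower values in PB-TERRA. Their median log2 ratio was 0.06. The interval lay above 0 for 16 and below 0 for 4, beside 18.1% and 17.7% of all genes. At least 0.5 in either direction was reached by 3 of the 41, where 2.3% of all genes were that much higher and 2.37% that much lower. Ptgs2, the inducible cyclooxygenase, was the highest, at 0.55 and 1.13 FPKM. Its log2 ratio was 0.92, from 59 and 122 reads, but it passed the filter through PB-TERRA alone and so had to be higher there. Gadd45g, a stress and growth arrest gene, had 2.42 and 4.48 FPKM and a log2 ratio of 0.86. Irf1, an interferon-responsive transcription factor, was the lowest, with 21.14 and 14.55 FPKM and a log2 ratio of -0.54. The intervals of these 3 genes did not include 0.
Dusp1 belongs to the MAP kinase phosphatases, and 8 of 9 other such genes passed the filter, 3 higher and 5 lower. Dusp9, a cytoplasmic ERK phosphatase, was the highest, at 48.82 and 70.07 FPKM and a log2 ratio of 0.52. The lowest, Dusp2, had 1.20 and 0.90 FPKM and a log2 ratio of -0.38, and its interval from -1.10 to 0.26 included 0. It passed the filter through PB alone and so had to be lower in PB-TERRA. The median over the 8 was -0.02, and the interval lay above 0 for 2 and below 0 for 2.

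Of the genes upstream of the members, 0 reached a difference of 0.5 on the log2 scale, a size found for 4.67% of all genes. With 19 kinases and 11 factors listed, a count of 0 is near that share. All 19 listed kinases of the RAF, MEK, ERK, JNK, p38 and RSK groups passed the filter, 11 higher and 8 lower, with log2 ratios from -0.23 for Rps6ka5 to 0.12 for Braf. Their interval lay above 0 for 3 and below 0 for 4. All 11 listed transcription factors and coactivators passed it, 7 higher and 4 lower, from -0.08 for Mkl1 to 0.22 for Elk3. Their interval lay above 0 for 4 and below 0 for 0. Srf, the factor at the CArG box and named for that role, had 23.89 and 23.19 FPKM and a log2 ratio of -0.04. SRF also drives genes of the actin cytoskeleton, mainly through the MKL coactivators. Of 12 such genes 10 had lower and 2 had higher values in PB-TERRA. Their median log2 ratio was -0.11, and the interval lay below 0 for 8 and above 0 for 2. Over all genes, 50.9% were lower, and the interval lay below 0 for 17.7% and above 0 for 18.1%. Cnn1, a smooth muscle calponin, was the lowest, with 8.73 and 4.95 FPKM and a log2 ratio of -0.81, and Acta2, smooth muscle actin, was the highest at 0.45. Of 4 stress-inducible chaperones, 2 were higher and 2 lower. Hspa1a was the highest, at 1.25 and 1.82 FPKM (log2 ratio 0.51), and Dnajb1 the lowest at -0.03. Hspa1b had more than Hspa1a, at 4.44 and 4.41 FPKM, with a log2 ratio of -0.01 and an interval that included 0.

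**Figure D5:**
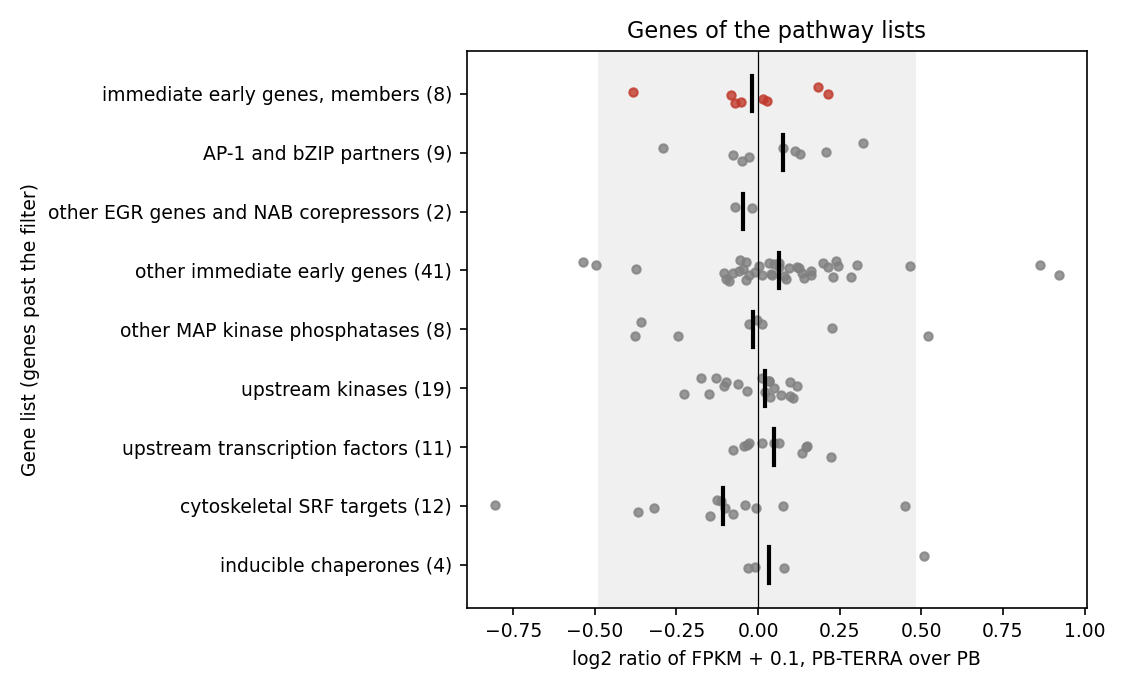
Points are genes past the filter, by list and by log2 ratio of PB-TERRA to PB with 0.1 FPKM added, with the number of genes in parentheses and the median as a black line. The shaded band is the middle 95% of all genes, and the medians of these pathway lists, which leave out the cell type markers, run from -0.11 for the cytoskeletal SRF targets to 0.08 for the AP-1 partners.

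Markers of the labelled cell type were high, with all 8 listed embryonic stem cell markers between 127.58 and 1162.5 FPKM in PB. In PB-TERRA 4 of them had higher and 4 had lower values. Their interval lay above 0 for 4 and below 0 for 3, beside 18.1% and 17.7% of all genes. Their summed FPKM was 3013.28 in PB and 2913.58 in PB-TERRA, of which Dppa5a alone held 1162.5 and 1039.92. Beside the members' values, 7 of 7 primitive endoderm markers past the filter were higher in PB-TERRA, where 48.6% of all genes were. The interval lay above 0 for 6 of these markers and below 0 for 0. Pdgfra among them passed through PB-TERRA alone and so had to be higher. The summed FPKM of the 9 listed was 35.91 in PB and 44.92 in PB-TERRA. Of 10 fibroblast markers 6 passed, 4 higher and 2 lower, with intervals above 0 for 2 and below 0 for 1. The sums over the 10 were 22.72 FPKM in PB and 26.81 FPKM in PB-TERRA. Col1a1 moved this sum most, with 7.99 FPKM in PB and 12.14 in PB-TERRA, whereas Thy1 had 9.16 and 8.39. Of the 4 higher, Col1a2 and Pdgfrb passed through PB-TERRA alone. Of 6 neural precursor markers 2 passed, 1 higher and 1 lower, with intervals above 0 for 1 and below 0 for 1. The sums over the 6 were 29.15 and 23.24 FPKM. Nes made up most of both sums, at 27.3 FPKM in PB and 20.93 FPKM in PB-TERRA, whereas Sox1, the other marker past the filter, was at 1.06 and 1.56 FPKM. The part of other cell types in the members' values was not tested, and in bulk RNA fewer cells of a type and less RNA per cell cannot be told apart.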

How the data were processed

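The authors sequenced total RNA of PB and of PB-TERRA mESCs (line 46C) on a BGISEQ-500, with 1 library each. The submitters' processing notes name HISAT, Cufflinks and the build mm9, without versions or roles. The authors deposited 1 table of 18888 genes, with gene lengths and expression values read here as FPKM, rounded to 2 decimals with a floor of 0.01. The header names no unit. Columns with the authors' own fold changes, p-values, adjusted p-values and calls were not used.

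Library totals were found as the values that put FPKM times length nearest to whole reads, over 650 genes in PB and 697 in PB-TERRA of 200 to 900 bases and at most 2 FPKM. This took 114 and 115 bases off the gene length, for a reason that is not known. Within rounding plus 0.02 reads, 70.5% and 76.2% of these values were whole, where 16.8% in each library would be by chance. The estimated reads are therefore approximate. The steps were tested on simulated data.

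With 1 library per condition no p-value is given. The members and lists were chosen with earlier results of these data known. Named genes are all members and, in each pathway list, the highest, the lowest and those past 0.5. The lists of cell type markers are given by counts and sums. Srf, Hspa1b, family members, overlapping genes and neighbours were named outside this rule. So were Dppa5a, Pdgfra, Col1a1, Col1a2, Pdgfrb, Thy1, Nes and Sox1. Promoters came from RefSeq on GRCm38.p6 and gene order from the same assembly. No coordinates of the authors' build were used. Alternatives were the pseudocount, the filter, the scaling, gene length (50 bins) and, added after seeing the data, the ratio of estimated reads. Computations ran in Python 3.11.15 with scipy 1.17.1, numpy 2.4.6 and pandas 2.3.3, and plots in matplotlib 3.10.9.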

Additional observations from a re-analysis of the deposited data

How the results depend on the processing

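No paired analysis was possible because each condition has 1 library, and for the same reason no replicate could be left out. Under 8 alternatives set at the start and 1 added after seeing the data, 0 members differed by 0.5 or more on the log2 scale, and every member kept its sign in each setting that gave it a value. The members' median of -0.02 ranged from -0.06 to 0.02, positive with rescaling (0.02) and with the length trend taken off (0.0056). Fos, Fosb, Atf3 and Egr2 had no value with a mean of at least 5 FPKM required. The log2 ratio of Ier3 ranged from -0.39 to -0.33, that of Dusp1 from 0.18 to 0.22 and that of Atf3 from 0.15 to 0.26. Egr2 moved most, from -0.33 with estimated reads to -0.01 with 1 FPKM added, all within its counting interval. The count of all genes that differed by 1 or more on the log2 scale, 112, was 45 with 1 FPKM added, 517 with no filter and 17 with a mean of at least 5 FPKM. It was 234 with values rescaled to the same sum in both libraries, which also changes what the filter of 1 and the added 0.1 amount to, and their parts were not separated. Depth limits Fosb and Egr2 most, with 33 and 5 reads in PB and intervals from -1.03 to 0.52 and from -2.66 to 1.88.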

Other observations

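Gene ontology process terms in the deposited table were carried by 6 of the 10 members. The process term shared by most members, transcription from RNA polymerase II promoter, was carried by Fos, Fosb, Egr1 and Egr2. Over the 606 genes past the filter that carry it, 324 were higher and 278 lower in PB-TERRA, with a median log2 ratio of 0.02. Response to calcium ion was carried by Fos, Fosb and Junb. Of 26 genes past the filter with that term, 15 were higher and 11 lower, with a median of 0.02. Skeletal muscle tissue development was carried by Fos, Egr1 and Egr2. Of 40 genes past the filter with that term, 20 were higher and 20 lower, with a median of 0.0039.

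Over the protein-coding genes that lie within 2 places of a member in RefSeq, 33 different genes had enough expression to pass, 12 with higher and 21 with lower values in PB-TERRA and a median log2 ratio of -0.07. Fam71a and Pacc1, neighbours of Atf3, had no row under these symbols and were left out. The interval of the reads lay below 0 for 12 of them and above 0 for 7. Over all genes past the filter 50.9% were lower, and the interval lay below 0 for 17.7% and above 0 for 18.1%. Among neighbours past the filter, all 4 of Ier3, all 3 of Junb, 3 of 4 of Fosb and the 1 of Atf3 were lower. For Dusp1 and for Fos 2 of 3 were lower. For Egr2 3 of 4 were higher and for Jun 2 of 3, and for Egr1 and Ier2 2 were higher and 2 lower. The neighbours were examined after the members' values were seen.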
